A study of Homo sapiens with 14 samples.

Results

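The signal peptidase complex removes the signal peptide from proteins as they enter the endoplasmic reticulum, and its 5 subunit genes were described in 14 RNA libraries of prostate cancer cell lines. The members were taken by gene name from the deposited count table: SEC11C and SEC11A, the interchangeable catalytic subunits, and SPCS1, SPCS2 and SPCS3, the accessory subunits. All 5 of the 62703 genes in the table were found, and all 5 passed the low-count filter that left 7086 genes for testing. SEC11C was chosen with its response to treatment known, so its treatment effects are given below as a description, without a test.

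The study asked how inhibition of CDK8 and CDK19, the kinases of the Mediator complex, acts in enzalutamide-sensitive and enzalutamide-resistant cells. LNCaP, an enzalutamide-sensitive line, and 22Rv1, an enzalutamide-resistant line, each had 3 libraries with SEL120-34A, which inhibits both kinases, at 1.5 µM for 3 days, and 3 with its solvent DMSO. PC3 had 1 library per arm and therefore no test. Total counts ranged from 246063 to 909176 per library, and in both replicated lines the treated libraries were on the whole shallower than the controls (291056 to 519928 against 412881 to 759548 in LNCaP, 246063 to 368778 against 476455 to 777207 in 22Rv1). KLK3, which encodes prostate-specific antigen, reached 1218 ± 167 CPM (SD, n = 3) in LNCaP with DMSO, 20.4 ± 9.97 in 22Rv1 with DMSO and 7.62 in PC3 with DMSO.

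Proteins bound for secretion or for the cell surface carry a short signal peptide at their start. The signal recognition particle brings the ribosome to the Sec61 channel, the chain threads into the endoplasmic reticulum, and signal peptidase cuts the peptide off on the inner side of the membrane. A complex holds either SEC11A or SEC11C as its protease, while SPCS2 and SPCS3 are structural partners and SPCS1 contributes to how the complex distinguishes signal peptides from membrane segments. Secretory cells such as the prostate epithelium depend on this step for the proteins they release.

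SEC11C (ENSG00000166562.9) lies on chromosome 18, 59139866 to 59158832, plus strand, and SEC11A (ENSG00000140612.14) on chromosome 15, 84669538 to 84716460, minus strand, in GENCODE release 44 on GRCh38. SPCS1 (ENSG00000114902.14) lies on chromosome 3, 52704955 to 52711148, plus strand. SPCS2 (ENSG00000118363.13) lies on chromosome 11, 74949261 to 74979033, plus strand, and SPCS3 (ENSG00000129128.13) on chromosome 4, 176319966 to 176332245, plus strand. The coding sequences of SEC11A and SEC11C matched at 72.4% of 537 aligned bases, and neither transcript had another gene's transcript at 95% identity or more over at least 100 bases. SPCS2 matched the pseudogene SPCS2P4 at 99.6% over 681 bases, so its counts are uncertain to the extent that tags fell there; SPCS2P4 itself held 1 to 14 counts per library. SPCS1 overlaps NEK4 and GLT8D1 on the opposite strand, which held 6 to 28 and 12 to 60 counts per library, against 209 to 805 for SPCS1.

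The promoters of SEC11C, which had the largest response of the complex in LNCaP, and of SPCS2, which had the largest in 22Rv1, are shown as the 250 bases before the RefSeq start (GRCh38.p14, 5′ to 3′ on the gene's strand). RefSeq promoters were found for SEC11C, SEC11A, SPCS2 and SPCS3; for SPCS1 none is given. Capitals mark CCAAT and CCACG on either strand, the outer parts of the endoplasmic reticulum stress response element. The SEC11C window is chr18:59139634-59139883 and the SPCS2 window is chr11:74949016-74949265.
SEC11C: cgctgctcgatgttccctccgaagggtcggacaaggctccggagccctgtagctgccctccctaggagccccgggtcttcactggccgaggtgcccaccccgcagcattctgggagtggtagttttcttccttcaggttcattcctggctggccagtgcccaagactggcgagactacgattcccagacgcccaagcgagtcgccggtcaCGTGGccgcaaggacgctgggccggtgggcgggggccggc
SPCS2: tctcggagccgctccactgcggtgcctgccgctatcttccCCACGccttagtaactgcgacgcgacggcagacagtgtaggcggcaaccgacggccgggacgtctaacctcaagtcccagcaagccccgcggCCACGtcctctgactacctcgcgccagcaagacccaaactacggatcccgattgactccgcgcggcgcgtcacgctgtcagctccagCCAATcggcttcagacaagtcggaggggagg
SEC11C held 1 CCACG and no CCAAT, and SPCS2 held 2 CCACG and 1 CCAAT. SEC11A held 1 CCACG and no CCAAT, and SPCS3 held 1 CCAAT and no CCACG. Over 35093 RefSeq promoters of the same length, 33.5% held CCACG and 32.0% held CCAAT. The core of the unfolded protein response element, TGACGTG, was in none of these 4 windows and in 1.68% of all. The GC box GGGCGG was found 1 time in SEC11C, 2 times in SEC11A, 3 times in SPCS3 and 0 times in SPCS2, and in 42.6% of all promoters. These are matches of letters on both strands, and none of them overlapped another.

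Levels are given as CPM, counts relative to the library total after scaling with TMM factors over all 14 libraries. Transcripts were tagged at their 3′ ends, so levels were compared between genes without division by length. Whether repeated reads of the same molecule were collapsed was not given, so comparisons between genes are approximate. In bulk RNA, more cells with a transcript and more RNA per cell cannot be told apart. SEC11C, the catalytic subunit found mainly in secretory tissues, was read in the LNCaP controls at 700.1, 466.0 and 527 CPM (497, 178 and 377 counts). The treated LNCaP libraries gave 2051, 1418 and 1415 CPM (526, 523 and 670 counts). Every treated library lay above every control. In this comparison 19.4% of all tested genes had no overlap, in either direction.

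In 22Rv1, SEC11C was read at 395, 391 and 415 CPM with DMSO and at 515, 627 and 542 CPM with SEL120-34A, again without overlap. There 23% of all tested genes had none, in either direction. In PC3 it was read at 128 CPM with DMSO (118 counts) and 130 CPM with SEL120-34A (74 counts). The order of the group means of SEC11C was therefore LNCaP with SEL120-34A (1628 ± 366 CPM, SD, n = 3), LNCaP with DMSO (564 ± 121), 22Rv1 with SEL120-34A (561 ± 58.1), 22Rv1 with DMSO (400.3 ± 12.9) and PC3. The libraries of untreated LNCaP (466.0 to 700.1 CPM) and treated 22Rv1 (515 to 627 CPM) overlapped, and the PC3 libraries differed by less than counting error.

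**Figure D1:**
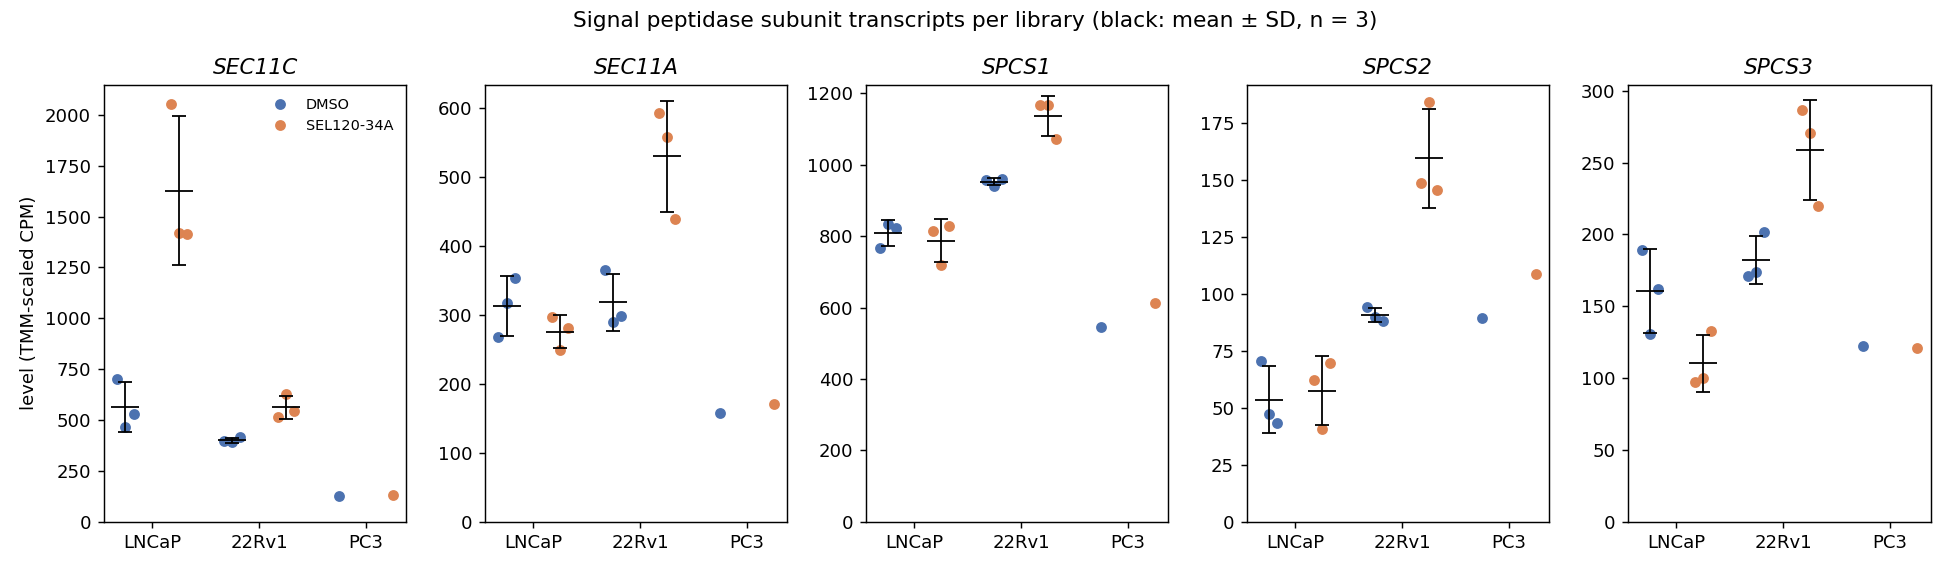
Level of each subunit transcript (vertical axis, TMM-scaled CPM from 0, a separate scale per gene) in every library of LNCaP, 22Rv1 and PC3, with DMSO in blue and SEL120-34A in orange; black bars are mean ± SD of 3 libraries. SEC11C goes from 564 to 1628 CPM in LNCaP and is separated by treatment in LNCaP and in 22Rv1. The other 4 subunits are separated by treatment in 22Rv1, as were 23% of all tested genes in either direction. They overlap in LNCaP, where 19.4% of all tested genes were separated.

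The fitted log2 fold change of SEC11C was 1.54 ± 0.14 (SE) in LNCaP, a 2.91-fold higher level with a 95% interval of 1.25 to 1.83 on the log2 scale. In 22Rv1 it was 0.49 ± 0.15, or 1.40-fold, with an interval of 0.18 to 0.80. The difference between these effects, LNCaP minus 22Rv1, was 1.05 ± 0.21 (interval 0.63 to 1.47). Because SEC11C was selected on these responses, no p-value is attached to them. The LNCaP value stayed between 1.33 and 1.73 under all 22 alternatives, and the 22Rv1 value between 0.34 and 0.58. These alternatives reuse the libraries on which SEC11C was chosen, so they show dependence on processing only.

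The other catalytic subunit, SEC11A, which most cell types express, rose in 22Rv1 and did not pass the threshold in LNCaP. In LNCaP it was read at 268, 317 and 354 CPM with DMSO and at 296, 249 and 281 CPM with SEL120-34A. These overlapped, and the log2 fold change was -0.16 ± 0.15 (interval -0.47 to 0.15, edgeR quasi-likelihood adjusted p = 0.732). In 22Rv1 it was read at 365, 290.1 and 298 CPM with DMSO and at 593, 558 and 439 CPM with SEL120-34A. There SEC11A rose 1.69-fold (log2 fold change 0.75 ± 0.14, edgeR adjusted p = 0.000615), with every treated library above every control. The difference between the effects of SEC11A was -0.91 ± 0.21 (edgeR adjusted p = 0.0264). It passed the threshold in 14 of 21 alternatives, and among the exceptions were the fits without LNCaP DMSO replicate 3 (adjusted p = 0.123) and without 22Rv1 SEL120-34A replicate 1 (adjusted p = 0.124).

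SPCS1, the smallest accessory subunit and the most abundant transcript of the complex in 5 of the 6 groups, was read at 766 to 835 CPM in the LNCaP controls and at 718 to 828 CPM in treated LNCaP. Its log2 fold change there was -0.01 (edgeR adjusted p = 0.994). In 22Rv1, SPCS1 was read at 956, 941 and 960.1 CPM with DMSO and at 1169, 1167 and 1072 CPM with SEL120-34A, so the groups did not overlap, and the log2 fold change of 0.27 ± 0.12 did not pass the threshold (edgeR adjusted p = 0.183). With library totals in place of TMM it was 0.11.

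SPCS2, an accessory subunit at the lowest level of the 5, was read in LNCaP at 70.4, 47.1 and 43.3 CPM with DMSO and at 62.4, 40.7 and 69.7 CPM with SEL120-34A, from 15 to 50 counts each. These overlapped (log2 fold change 0.12, edgeR adjusted p = 0.899). In 22Rv1, SPCS2 was read at 94.2, 89.8 and 88.3 CPM with DMSO and at 149, 185 and 145 CPM with SEL120-34A. It rose there by 0.81 ± 0.20 on the log2 scale (edgeR adjusted p = 0.00976), on 43 to 74 counts per library. The call for SPCS2 was lost without 22Rv1 DMSO replicate 3 (adjusted p = 0.0585), without 22Rv1 SEL120-34A replicate 2 (adjusted p = 0.0826), with libraries thinned to equal totals (adjusted p = 0.126) and with limma (adjusted p = 0.0904).

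SPCS3, the accessory subunit that sits against the catalytic one, was read in LNCaP at 189, 131 and 162 CPM with DMSO and at 97.5, 100.3 and 133 CPM with SEL120-34A. The groups overlapped at their edges, and the log2 fold change of -0.51 ± 0.18 did not pass the threshold (edgeR adjusted p = 0.155). In 22Rv1, SPCS3 was read at 171, 174 and 202 CPM with DMSO and at 287, 270.4 and 219.6 CPM with SEL120-34A. These did not overlap, and the log2 fold change was 0.51 ± 0.16 (edgeR adjusted p = 0.0566). The difference between the effects of SPCS3, -1.01 ± 0.25, passed the threshold (edgeR adjusted p = 0.0336) and did so in 9 of 21 alternatives. Leaving out LNCaP DMSO replicate 1, for example, ended it (adjusted p = 0.146).

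SEC11C was chosen for its response, so the count over the complex is given first for the 4 other subunits. In LNCaP edgeR called 0 of 4, as did DESeq2 and limma, where edgeR called 2.77% of all tested genes (1.99% higher, 0.776% lower). There 1 of the 4, SPCS3, had an unadjusted edgeR p under 0.05, as did 956 of all 7086 tested genes. In 22Rv1, 2 of 4 were called, both higher (SEC11A and SPCS2), where 5.7% of all genes were called (4.15% higher, 1.55% lower). Treated libraries were clear of the controls for 0 of 4 in LNCaP, against 19.4% of all genes, and for 4 of 4 in 22Rv1, against 23%. The difference between the effects was called for 2 of 4, SEC11A and SPCS3, against 0.734% of all genes. With SEC11C, whose own calls follow from its choice and are read as no result, the counts were 1 of 5, 3 of 5 and 3 of 5; in 22Rv1 SEC11C stood at the threshold and passed it in 10 of 22 alternatives. The 22Rv1 count with SEC11C fell to 1 without 22Rv1 DMSO replicate 3, without 22Rv1 SEL120-34A replicate 2, and with limma. The count for the difference between the effects, with SEC11C, fell to 1 without any one of LNCaP DMSO replicate 3, LNCaP SEL120-34A replicate 2, 22Rv1 DMSO replicate 2 and 22Rv1 SEL120-34A replicates 1 and 2. It fell to 0 with limma, where all 5, SEC11C included, had an unadjusted p under 0.05. The limma share over all genes at that level was not taken. With edgeR, 811 of all 7086 tested genes had an unadjusted p under 0.05 for this difference.

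**Figure D2:**
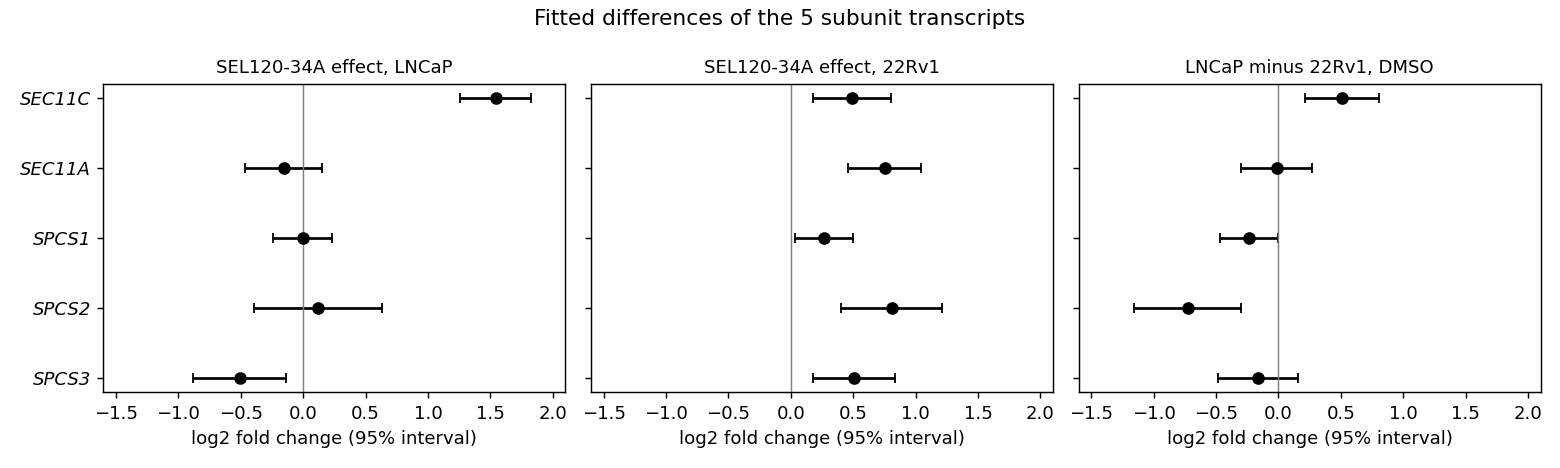
Fitted log2 fold change of each subunit (horizontal axis, with 95% interval) for SEL120-34A against DMSO in LNCaP, the same in 22Rv1, and untreated LNCaP against untreated 22Rv1. Intervals are before adjustment over genes. In LNCaP that of SEC11C alone lies above 0 (1.25 to 1.83) and that of SPCS3 lies below 0. In 22Rv1 the intervals of all 5 lie above 0, among them SEC11C, which was chosen on its response. Of all 7086 tested genes, 956 in LNCaP and 1351 in 22Rv1 had an unadjusted edgeR p under 0.05, in either direction.

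The make-up of the catalytic pair is given as a description. SEC11C was chosen on its response, so its share carries that choice and is no separate result. Of the counts for SEC11C plus SEC11A, SEC11C held 72.3%, 59.5% and 59.8% in the LNCaP controls and 87.4%, 85.0% and 83.4% in treated LNCaP. In 22Rv1 it held 51.9%, 57.4% and 58.2% with DMSO and 46.5%, 52.9% and 55.2% with SEL120-34A. The first comparison did not overlap and the second did. In PC3, SEC11C held 45.0% with DMSO (95% Clopper-Pearson interval 38.9 to 51.3) and 43.3% with SEL120-34A (35.7 to 51.1), which cover each other. The intervals cover counting error only and take each count as a separate molecule.

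Summed over both catalytic genes, SEC11C and SEC11A, the level went from 877 ± 92.5 CPM (SD, n = 3) to 1903 ± 385 CPM in LNCaP and from 718 ± 39.5 to 1091 ± 103 CPM in 22Rv1. The accessory sum (SPCS1, SPCS2 and SPCS3) was 1022 ± 7.80 and 955 ± 87.4 CPM in LNCaP and 1225 ± 22.6 and 1555 ± 102 CPM in 22Rv1. Catalytic CPM per accessory CPM therefore went from 0.858 ± 0.086 to 2.0 ± 0.38 in LNCaP and from 0.586 ± 0.031 to 0.701 ± 0.025 in 22Rv1. In PC3 the ratio was 0.377 with DMSO and 0.356 with SEL120-34A. The catalytic sums contain SEC11C, so they too carry its choice and are no separate result. These are ratios of RNA and say nothing of assembled complexes.

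**Figure D3:**
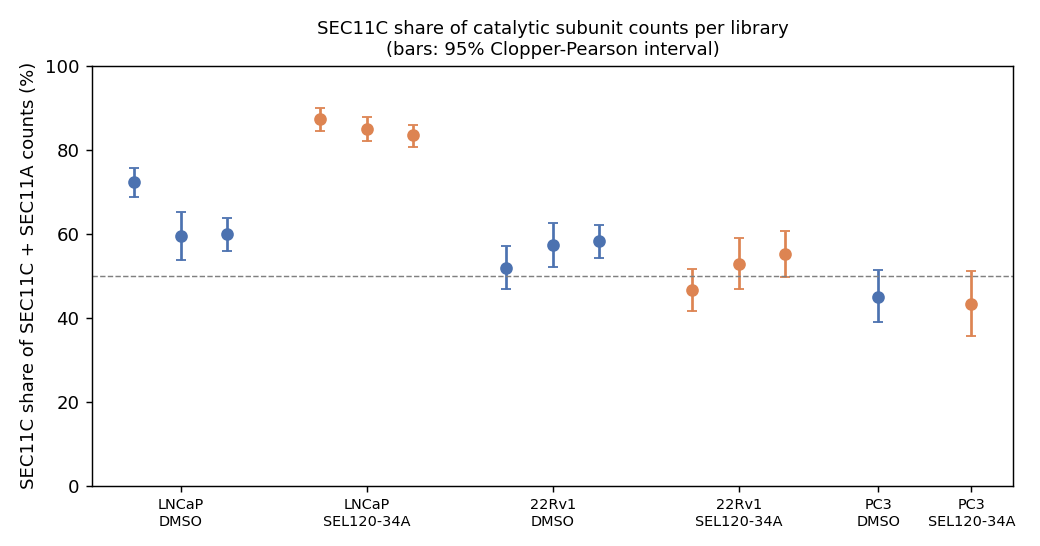
Share of SEC11C among SEC11C plus SEC11A counts (vertical axis, percent, 0 to 100) in each of the 14 libraries, with DMSO in blue and SEL120-34A in orange; bars are 95% Clopper-Pearson intervals and the dashed line marks equal counts. Treated LNCaP stands at 83.4 to 87.4%, above every other library. The share is a description, since SEC11C was chosen on its response.

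In PC3 no member moved beyond counting error. The log2 ratio of SEL120-34A to DMSO was 0.01 for SEC11C (exact 95% counting interval -0.43 to 0.45), 0.12 for SEC11A (-0.27 to 0.50), 0.17 for SPCS1 (-0.04 to 0.37), 0.28 for SPCS2 (-0.22 to 0.78) and -0.01 for SPCS3 (-0.47 to 0.43). Over the 7089 genes with at least 10 counts in both PC3 libraries, the median ratio was 0.05 and the 5th to 95th percentiles were -0.63 to 0.79. With 1 library per arm there was no measure of replicate spread. The PC3 ratio of SEC11C was therefore not compared with its LNCaP effect, on which SEC11C was chosen.

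The untreated lines were compared next. Because this contrast shares the DMSO libraries with the responses on which SEC11C was chosen, its value for SEC11C is again a description without a test. SEC11C was 0.51 ± 0.15 higher on the log2 scale in LNCaP than in 22Rv1 (interval 0.21 to 0.80), at 564 ± 121 against 400.3 ± 12.9 CPM (n = 3 each), with no overlap. Without LNCaP DMSO replicate 1, the highest of the SEC11C controls, the value was 0.31, and with library totals in place of TMM it was 0.29. Under library totals the median over all tested genes shifted by -0.21. SPCS2 was lower in LNCaP by -0.73 ± 0.21 (53.6 ± 14.7 against 90.8 ± 3.10 CPM, edgeR adjusted p = 0.00461). Leaving out LNCaP DMSO replicate 3 ended the call for SPCS2 (-0.56, adjusted p = 0.0564).

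SEC11A (-0.02, edgeR adjusted p = 0.942), SPCS3 (-0.16, adjusted p = 0.412) and SPCS1 (-0.24, adjusted p = 0.0837) did not pass the threshold between the untreated lines. SPCS1 passed it in 4 of 21 alternatives, with -0.45 under library totals (adjusted p = 0.000457), and SPCS3 in 1, with -0.38 under library totals (adjusted p = 0.0448). Of the 4 subunits other than SEC11C, 1 was called, SPCS2, which was lower, where 49% of all genes were called (24% higher, 25% lower). The libraries did not overlap for 2 of the 4, against 56.4% of all genes. A share near the background of these different lines is no result about the complex. Among the untreated libraries, PC3 had the lowest levels of SEC11C (128 CPM), SEC11A (157 CPM), SPCS1 (545 CPM) and SPCS3 (122 CPM), while SPCS2 stood at 89.3 CPM, within its range in the other lines.

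The steps around signal peptidase were read from lists of 66 genes for targeting, translocation, glycosylation, signal peptide clearance, attachment of GPI anchors and membrane insertion, 61 of which were tested. In LNCaP, edgeR called 0 of 61, with a median log2 fold change of -0.0036 beside 0.00076 over all genes. An unadjusted edgeR p under 0.05 was found for 5 of the 61, beside 956 of all 7086 tested genes. In 22Rv1, 3 of 61 were called, all higher, with a median of 0.06. They were SRP9, a subunit of the signal recognition particle (544 ± 24.2 to 881 ± 126 CPM, log2 fold change 0.70 ± 0.13, edgeR adjusted p = 0.000277), SSR4, a subunit of the translocon-associated TRAP complex (449 ± 11.6 to 639 ± 175 CPM, 0.50 ± 0.14, adjusted p = 0.0302), and DAD1, a subunit of the oligosaccharyltransferase that attaches sugars to entering chains (233 ± 18.2 to 319 ± 21.3 CPM, 0.47 ± 0.14, adjusted p = 0.0449). That share, 3 of 61, was near the 4.15% of all genes called higher, and the count was 1 when 22Rv1 DMSO replicate 1, 2 or 3 or 22Rv1 SEL120-34A replicate 2 was left out.

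The markers of the unfolded protein response, the chaperones and enzymes made when folding in the endoplasmic reticulum is strained, numbered 21 with 20 tested. In LNCaP 0 of 20 were called by edgeR, with a median of -0.06. An unadjusted edgeR p under 0.05 was found for 4 of the 20, beside 956 of all 7086 tested genes. In 22Rv1, 4 of 20 were called, all lower, where 1.55% of all genes were. HSPA5, the chief chaperone of the endoplasmic reticulum, went from 687 ± 99.4 to 347 ± 89.2 CPM (log2 fold change -0.94 ± 0.15, edgeR adjusted p = 2.72e-05). HSP90B1, a chaperone of the HSP90 family, fell by 0.57 on the log2 scale (adjusted p = 0.00347), CANX, the lectin chaperone calnexin, by 0.59 (adjusted p = 0.0105), and PDIA4, a disulfide isomerase, by 0.55 (adjusted p = 0.00393). So in the same 22Rv1 libraries SEC11A and SPCS2 rose while these 4 fell. Over the whole list, 9 of 20 changes were positive and 11 negative, with a median of -0.08. The calls of this list were not followed through the alternatives.

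**Figure D4:**
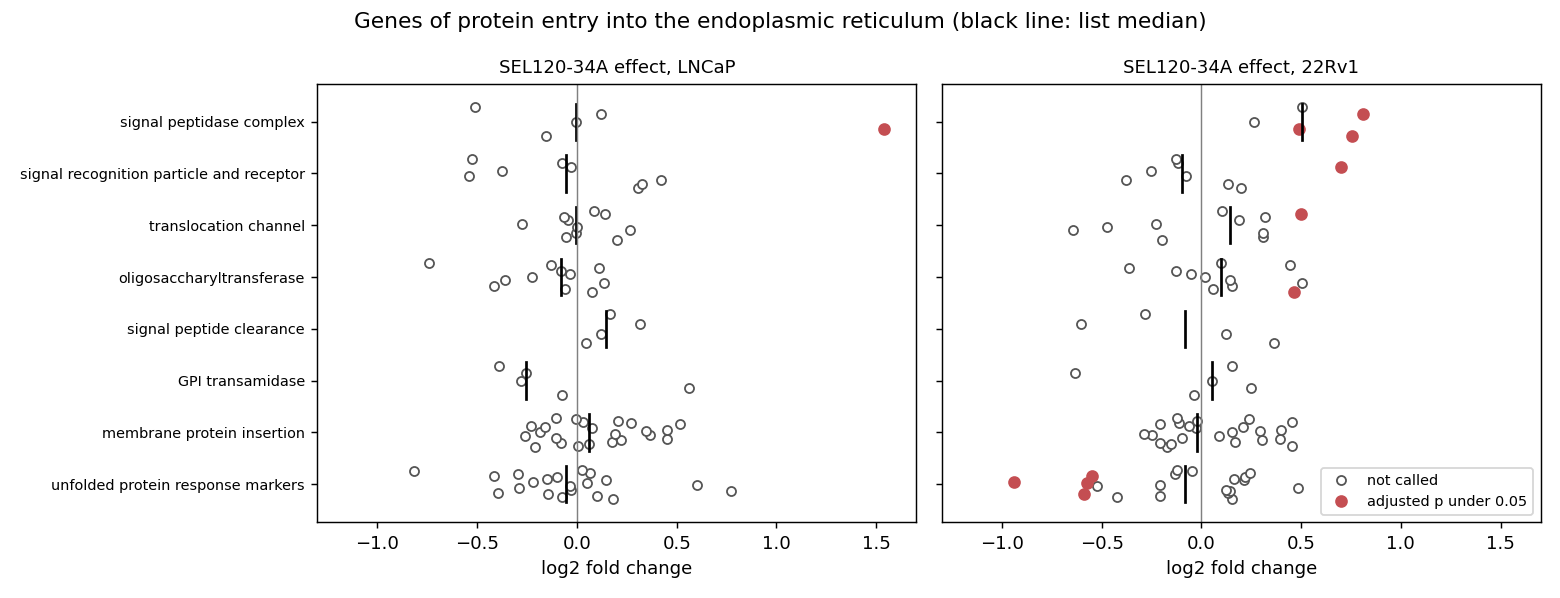
Log2 fold change after SEL120-34A (horizontal axis) in LNCaP and in 22Rv1 of each tested gene of the lists, with 1 row per list, filled points for adjusted p under 0.05 and a black line for the list median. The signal peptidase row of 22Rv1 has 3 filled points and a median of 0.51, both with SEC11C, whose own call follows from its choice. Of the 4 other subunits 2 are filled, where 5.7% of all tested genes were called. The unfolded protein response row of 22Rv1 has 4 filled points, all below 0, where 1.55% of all tested genes were called lower.

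Between the untreated lines, 29 of the 61 entry genes were called, 16 higher and 13 lower in LNCaP, close to the 49% of all genes. The largest on the higher side were SPPL2A, an intramembrane protease (log2 fold change 1.80), EMC3 (1.65), EMC2 (0.92) and EMC6 (0.77) of the membrane insertion complex EMC, SSR3 of TRAP (1.32), SEC61B of the channel (0.99) and OST4 of the oligosaccharyltransferase (0.80). The largest on the lower side were SSR2 of TRAP (-1.49) and TUSC3 (-1.40), DDOST (-1.21) and STT3B (-1.02) of the oligosaccharyltransferase. From the membrane insertion list they were NOMO1 (-1.33), EMC8 (-0.91) and NOMO2 (-0.74). Of the unfolded protein response markers, 13 of 20 were lower in LNCaP and 1, ATF4, was higher, against 25% and 24% of all genes. Among those lower were HSP90B1 (-1.91), MANF (-1.81), CRELD2 (-1.75), DDIT3 (-1.72), PDIA4 (-1.44) and CANX (-1.36).

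The genes whose pattern was most like that of SEC11C were sought among 3885 genes. These had at least 20 counts per library on average over the 12 LNCaP and 22Rv1 libraries, so PC3 did not enter this filter. Over the 14 libraries, which share 3 cell lines, the highest Pearson r of log2 CPM with SEC11C was 0.95 for ADRA2A, an adrenergic receptor, followed by GLYATL1 (0.94), ATP1B3, a sodium pump subunit (0.93), HSD11B2, which inactivates cortisol (0.93), and TXNRD2, a mitochondrial thioredoxin reductase (0.92). ADRA2A went from 98.5 to 715 CPM in LNCaP and from 108 to 60.2 CPM in 22Rv1, so its likeness did not extend to the treatment effect in 22Rv1. In PC3, ADRA2A stood at 2.18 and 3.51 CPM and GLYATL1 at 2.18 and 1.75 CPM with DMSO and SEL120-34A, below the level that 3 counts give there (3.27 and 5.26 CPM), so their r rests in part on PC3 values at the floor. HSD11B2 had a log2 fold change of 1.54 in LNCaP and of 0.58 in 22Rv1. The values in LNCaP and 22Rv1 were 0.93 and 0.69 for GLYATL1, 0.34 and 0.49 for ATP1B3, and 0.28 and 0.28 for TXNRD2. SEC11C itself had 1.54 and 0.49, so a high r did not mean a treatment effect of like size. None of the other 4 subunits was among these 5.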

How the data were processed

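RNA of LNCaP, 22Rv1 and PC3 was sequenced by BRB-seq, which tags barcoded transcripts at their 3′ ends before pooling. According to the labels and methods, reads were assigned to genes with STARsolo (GRCh38.p13, GENCODE release 43); the authors deposited the raw counts of 62703 genes. Whether molecular identifiers were collapsed was not given in the sources used here. The authors also deposited log2 CPM values for 9638 genes, which were rebuilt from the counts with TMM factors and a prior count of 2 to within 5e-14; they served 1 alternative.

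Groups and replicate numbers came from the labels. The methods describe replicates in general as biological; the labels do not say that these libraries came from separate cultures, and p-values measure the spread between them. No library repeated another within sampling noise (chi-square per degree of freedom at least 1.29).

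The 12 LNCaP and 22Rv1 libraries were fitted with edgeR 4.0.16 in R 4.3.3 (4 group means, TMM, low-count filter, quasi-likelihood test, 8 residual degrees of freedom), with Benjamini-Hochberg adjustment over 7086 genes and a threshold of 0.05. Alternatives used DESeq2 1.42.0 and limma 3.58.1. On simulated counts with log2 changes of 1.5, 88.5% of changed genes were recovered in LNCaP and 83.8% in 22Rv1, over 6582 genes. Of the calls, 9.09% in LNCaP and 5.33% in 22Rv1 were false, both above the threshold of 0.05. Smaller changes, such as those of the subunits other than SEC11C, were not simulated. A count of 3 was taken as the floor, 3.27 to 12.9 CPM by library. Of the gene identifiers, 62686 were found in release 44. Transcripts were compared with blastn 2.17.0 and MAFFT 7.526, and promoters were RefSeq's.

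The members and gene lists were chosen with earlier results of these data known. Named were the 5 members; from the lists, called genes by size of change, at most 8 per direction and comparison; the 5 genes most correlated with SEC11C; the nearest 2 tested genes on each side of it; and other genes named SEC11 or SPCS. A further marker of the cell lines is not reported here.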

Additional observations from a re-analysis of the deposited data

Results flagged for a closer look

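Among the genes of the lists other than SEC11C, 3 had SEL120-34A effects that differed between LNCaP and 22Rv1. This used the test of the difference itself (edgeR, adjusted over all tested genes). Called were 2 of the 4 other subunits, 1 of 61 entry genes and 0 of 20 unfolded protein response markers, against 0.734% of all tested genes. SEC11A had a difference of -0.91 on the log2 scale (adjusted p = 0.0264), its effect being -0.16 in LNCaP against 0.75 in 22Rv1. SPCS3 had a difference of -1.01 (adjusted p = 0.0336), its effects being -0.51 and 0.51, neither of which passed the threshold in its own line. SRP9 had a difference of -0.73 (adjusted p = 0.0418), its effect being -0.03 in LNCaP against 0.70 in 22Rv1. The SEC11A call held in 14 of 21 alternatives and the SPCS3 call in 9 of 21, while SRP9 was not followed through them.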

How the results depend on the processing

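SEC11A in 22Rv1 kept its direction and call under all 22 alternatives. Members called in 22Rv1 numbered 1 with limma and 1 to 3 when single libraries were left out. Between untreated lines, members called numbered 1 to 2 with single libraries left out. They numbered 3 there with at least 10 counts in every library, after thinning or with limma. For the difference between effects, members called numbered 1 to 3 with single libraries left out and 0 with limma. In that limma fit 5, SEC11C included, had an unadjusted p under 0.05, a count without a share over all genes. Entry genes called numbered 0 to 1 in LNCaP and 1 to 3 in 22Rv1 with single libraries left out. In 22Rv1 they numbered 1 with library totals, 1 without a filter and 1 with each line fitted alone; between untreated lines they numbered 19 after thinning. SEC11C between untreated lines was 0.29 with library totals and 0.31 to 0.63 with single libraries left out. SEC11A there turned to 0.033 after thinning and ranged from -0.13 to 0.087 with libraries left out. SPCS1 in LNCaP turned to 0.0038 with DESeq2 size factors, 0.0042 with the DESeq2 test, 0.012 with at least 10 counts in every library and 0.091 after thinning, and ranged from -0.040 to 0.051 with libraries left out; SPCS2 in LNCaP ranged from -0.090 to 0.40. The share of SEC11C in PC3 with DMSO was 29.3% in 1 thinned draw and 42.5% as the mean of 20 draws, an alternative chosen after seeing the data; the PC3 ratio of SEC11C was 1.08 in that draw and 0.12 as the mean. Deviations of libraries with the same replicate number had correlations of -0.03 to 0.08, and those with different numbers -0.12 to 0.05. Counting noise enters each deviation, so these values cannot settle whether the numbers pair the libraries. With the replicate block, members called in 22Rv1 numbered 4, SPCS3 being added at 0.50 (edgeR adjusted p = 0.0487). The causes were not tested. Depth limits SPCS2 most, with 15 to 50 counts per LNCaP library.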

Other observations

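The tested genes nearest to SEC11C on chromosome 18 were MALT1 and ZNF532 at lower coordinates and LMAN1 and PMAIP1 at higher ones. MALT1, which encodes a protease of NF-kB signalling 385 kb from SEC11C, went from 27.4 to 64.1 CPM in LNCaP after SEL120-34A (log2 fold change 1.21, edgeR adjusted p = 0.0280) and stood at 10.5 and 9.39 CPM in 22Rv1 (-0.14, adjusted p = 0.932). LMAN1, a cargo receptor between the endoplasmic reticulum and the Golgi 169 kb away, had log2 fold changes of 0.16 in LNCaP (edgeR adjusted p = 0.843) and 0.42 in 22Rv1 (adjusted p = 0.520). ZNF532, 153 kb away, and PMAIP1, 741 kb away, did not pass the threshold in either line (edgeR adjusted p of at least 0.259). Of the other genes named SEC11 or SPCS, SEC11B, SPCS2P1 and SPCS3-AS1 held at most 1 count in any library, and SPCS2P2 and SPCS2P3 held 0 counts in every library.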
